A study of Drosophila melanogaster with 4 samples.

Results

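The genes described here are 134 of the 2860 listed for Drosophila melanogaster ovaries, chosen by their measured values: the message was present, it carried few ribosome footprints, and neither measure differed much between flies with and without NSUN2. Membership required a listed 5-methylcytosine (m5C) level below 0.6 and a wild-type mRNA value of at least 5. It also required log2 differences between knockout and wild type under 0.35 either way (1.27-fold) in mRNA and in footprints, and a wild-type footprint per mRNA ratio of at most 0.33, each value taken plus 1. Since the members were selected on mRNA and footprint values of these same libraries, those values are given as a description with no test. The rule also left out Treh and pps by name, but neither had a ratio under the limit, so this removed no member. The word stable means only that the genotypes differed little, since no message half-life was measured.

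Ovaries of W1118 wild-type flies and of NSUN2 KO flies, which have the same W1118 background, were each profiled once by ribosome footprints and once by poly(A) mRNA. The 4 groups (wild-type footprints, knockout footprints, wild-type mRNA and knockout mRNA) thus hold 1 library each, so differences between genotypes stand without replicates. The labels do not give the age of the flies, how many were pooled or the lesion in NSUN2. Footprints are the mRNA pieces of 28 to 30 nt that a ribosome shields from nuclease, taken here from the single-ribosome peak of a gradient.

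NSUN2 is an RNA methyltransferase that adds m5C to tRNAs and to some mRNAs. In the fly ovary, nurse cells make large amounts of message for the oocyte, and many of these maternal messages are stored in a repressed state until late oogenesis or early embryogenesis. Repression of this kind works through proteins that bind the message and through control of its poly(A) tail, and a repressed message can be abundant while few ribosomes read it. The footprint per mRNA ratio describes that relation between genes on a relative scale. Each assay has its own depth and length scale, so no value of the ratio is an absolute level. The effect of tail length on the poly(A) mRNA values was not tested. In whole ovaries, a low value in all cells cannot be told apart from a high message level in cells that translate it little, and fewer cells of a type cannot be told apart from less RNA per cell.

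The deposited tables hold identifiers without names. Symbols from RefSeq (assembly Release 6 plus ISO1 MT) were found for 18 of the 2860 genes and for 0 of the 134 members. The members are therefore named by identifier and given no function, and the lists of ribosomal, mitochondrial, maternal, germ plasm, cell cycle and signalling genes found 0 members. For the same reason the markers of germline, follicle cells and other tissues could not be read, so the labelled tissue was not checked. NSUN2 was not among the 18 either, so the knockout label was not checked against its level. Among the 18, Mccc2, a subunit of a carboxylase of leucine breakdown, alone had a low ratio. Its ratio was 0.208, and its log2 footprint difference of -0.41 kept it out.

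Of the 2860 genes, 475 (16.6%) had a wild-type ratio at or below 0.33. With the m5C and mRNA limits applied, 385 remained of 2290 genes. Among those 385, the mRNA difference lay within the limits in 264 and the footprint difference in 187, with 134 passing both. Over all genes, 26.4% lay past the limit in mRNA and 44.2% in footprints. In the 1905 genes of higher ratio, mRNA was within the limits in 74.6% and footprints in 57.4%, against 68.6% and 48.6% of the 385. Both shares were a few points lower in the genes of low ratio, which also rested on fewer footprint reads. The part of read depth in this was not tested. The 134 members were 13.6% of the 986 genes that met all other terms, and the remaining 852 stable genes of higher ratio serve as the comparison below.

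The 2 footprint libraries had 1241753 reads over the listed genes in wild type and 2354835 in the knockout, and the mRNA libraries had 4064041 and 10406666, as recovered from the values. The members rested on few footprint reads. Their median was 45 in wild type, with a range of 2 to 531, and 87 in the knockout, against medians of 229 and 452 in the comparison genes. In wild type, 31 members had under 20 footprint reads and 73 had under 50. Their mRNA was well covered, with 263 to 9430 wild-type reads and a median of 1369. Footprint counting error therefore limits the precision of the footprint and ratio values below. The spread between libraries is unknown and comes on top of it. A whole factor shared by the reads and the length of a gene cannot be recovered, so each read number and each coding or exonic length is a lower limit. Where a factor was lost the intervals are too wide, which lowers counts of intervals that clear a value. Intervals are exact 95% Clopper-Pearson intervals. They cover counting error only. Copies of 1 molecule were not marked, and reads that are such copies make the intervals too narrow. Counts of intervals are therefore not limits in either direction.

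The members had a median wild-type mRNA value of 52.8 and a median footprint value of 9.51, on scales of depth- and length-scaled signal that the files do not name. In the knockout these medians were 53.1 and 9.51. The comparison genes had medians of 36.4 in wild-type mRNA and 42.2 in wild-type footprints. Members thus had more message and far fewer footprints. The ratio limit bounds footprints relative to mRNA and does not itself require more message. Wild-type mRNA is the divisor of that ratio, so neither difference is independent of the choice. Their ratio ran from 0.0499 to 0.33 with a median of 0.199, against 1.09 in the comparison genes, of which 472 were above 1. At the low end, 11 members had a ratio of 0.1 or less.

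**Figure D1:**
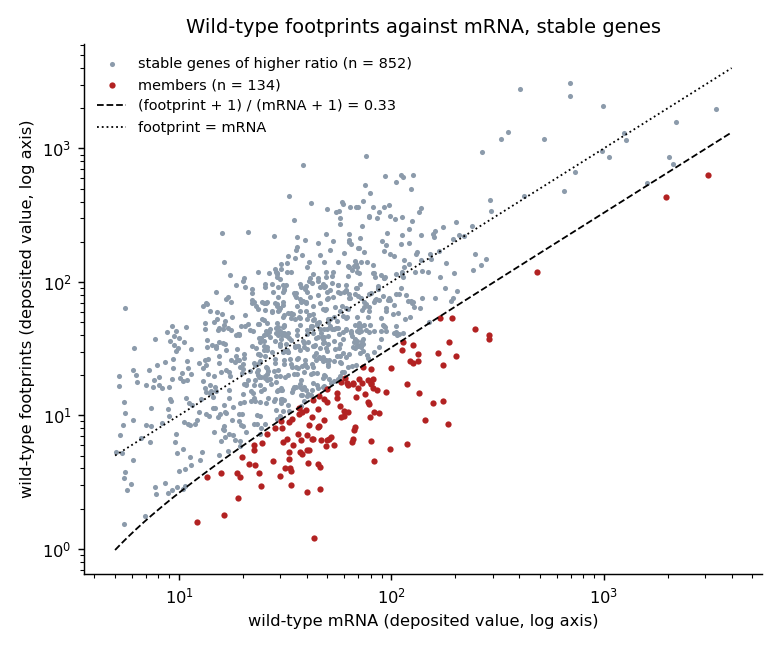
Wild-type footprint value (vertical, log axis) against wild-type mRNA value (horizontal, log axis) for the 986 stable genes, 1 point per gene. The 134 members (red) lie under the dashed line where the ratio is 0.33, from an mRNA value of 12.1 to 3110, while the 852 comparison genes (grey) spread to both sides of the dotted line of equal values.

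FBgn0260484 had the lowest ratio of the members. Wild-type ovaries had 43.0 in mRNA and 1.20 in footprints, and knockout ovaries 38.0 and 1.19. These footprints were 4 reads in wild type and 8 in the knockout. Its footprint per mRNA without the added 1 was 0.0278 in wild type with a counting interval from 0.0076 to 0.0714, so even the upper end lay far below the limit. The next gene, FBgn0030056, had far more message, with 185 in wild-type mRNA and 162 in knockout mRNA. Its footprints stood at 8.57 and 10.5, which gave a wild-type ratio of 0.0464 without the added 1 (0.0279 to 0.0726). The intervals of these first genes overlap widely, so their order is not resolved by the depth.

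FBgn0004643 had mRNA values of 119 (wild type) and 115 (knockout), with footprints of 6.10 and 5.52. Its ratio without the added 1 was 0.0514 (0.0365 to 0.0704) in wild-type ovaries and 0.0479 (0.0374 to 0.0605) in knockout ovaries. These intervals overlap, and the rule itself holds the ratios of the genotypes near each other. The footprint fold of this gene had an interval from 0.604 to 1.37. FBgn0037022 had mRNA at 98.9 and 79.4 and footprints at 5.59 and 4.75. In FBgn0030671 the mRNA values were 82.5 and 76.1, and the footprint values 4.58 and 3.90. Both measures were lower in the knockout in these 2 genes, within the counting interval for footprints. The mRNA intervals excluded equality. The mRNA fold was 0.802 (0.758 to 0.849) in FBgn0037022 and 0.923 (0.865 to 0.984) in FBgn0030671. FBgn0043010, whose coding length came out at 85 codons, had mRNA at 145 and 148 and footprints at 9.28 and 8.57, from 7 and 13 reads.

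FBgn0000927 was the best covered of the 10 lowest, with 79 footprint reads in wild type and 164 in the knockout. The mRNA values were 174.6 and 199.5, and the footprint values 12.8 and 13.2. The wild-type ratio without the added 1 was 0.0733 (0.0579 to 0.0916) and the knockout ratio 0.0661 (0.0564 to 0.0772). FBgn0038575 stood close to it, with mRNA at 156 and 142, footprints at 12.3 and 12.2, and a ratio of 0.0786 (0.0580 to 0.1042). FBgn0038584 and FBgn0035270 had less message, with wild-type mRNA of 46.2 and 40.2. Their wild-type footprints were 2.82 and 2.69, from 14 and 16 reads. All 10 genes kept mRNA and footprint values widely apart in both genotypes.

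**Figure D2:**
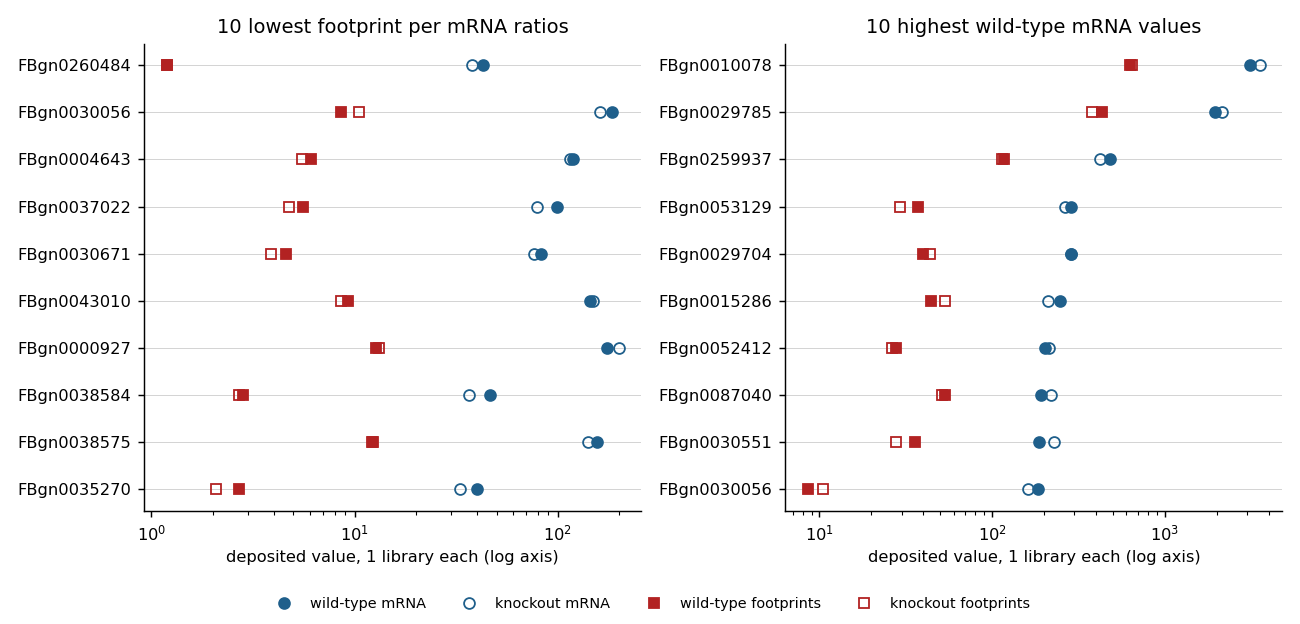
Deposited values in each of the 4 libraries (log axis) for the 10 members with the lowest ratio (left) and the 10 with the highest wild-type mRNA (right), with circles for mRNA, squares for footprints, filled for wild type and open for the knockout. In every gene shown the 2 mRNA values lie close together and well above the 2 footprint values, from FBgn0260484 with footprints of 1.20 and 1.19 to FBgn0010078 with mRNA of 3110 and 3564.

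The members also included very abundant messages. FBgn0010078 had the highest mRNA of all members, with 3110 in wild-type and 3564 in knockout ovaries, and footprints of 633 and 644. FBgn0029785 followed with mRNA of 1960 and 2160 and footprints of 434 and 378. FBgn0259937 came next, far lower, at 484 and 420 in mRNA and 118 and 114 in footprints. The first 2 genes stood well apart from the rest, and 26 of the 134 members had wild-type mRNA of at least 100, against 99 of the 852 comparison genes. These abundant members were not the most extreme in ratio, with 0.204 for FBgn0010078, 0.222 for FBgn0029785 and 0.245 for FBgn0259937.

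Among the next abundant members the ratio was lower. FBgn0053129 had mRNA of 288 and 266 and footprints of 37.3 and 29.2, a wild-type ratio of 0.133. FBgn0029704 had mRNA of 287 and 286 and footprints of 39.9 and 43.7, a ratio of 0.142. FBgn0052412 had mRNA of 202 and 214 and footprints of 27.9 and 26.2, also a ratio of 0.142. These 3 genes had 84 to 231 wild-type footprint reads, so their low ratios are measured more precisely than those of the lowest genes. FBgn0015286 had mRNA of 248 and 211 and footprints of 44.3 and 53.5, and FBgn0087040 had mRNA of 193 and 220 and footprints of 53.4 and 51.3. With ratios of 0.182 and 0.281, both were nearer the limit.

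The ratio limit divided a continuous range. The 4 members just inside it were FBgn0038167 at 0.323, FBgn0020887 at 0.327, FBgn0039632 at 0.329 and FBgn0023536 at 0.3299. Just outside stood FBgn0030010 at 0.3301, FBgn0030411 at 0.331, FBgn0013563 at 0.333 and FBgn0038344 at 0.337. The counting intervals of all 8 contain the limit. FBgn0023536, for example, had an interval from 0.241 to 0.397 for its ratio without the added 1, and FBgn0030010 one from 0.226 to 0.422.

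Of the 129 members with recovered reads in both assays, 92 had a wild-type interval that lay wholly below 0.33, against 11.4% of all genes so measured. In the knockout, 105 of the 129 did, against 14.2% of all genes. These intervals are of the ratio with nothing added to the values, whereas the rule set its limit on the ratio with the addition. Low ratios are lower without it, as in FBgn0260484 in wild type, at 0.0278 against 0.0499. More intervals can therefore lie below 0.33 than on the ratio of the rule, and that count was not made. The knockout libraries are the deeper ones, by 2.01-fold in footprints and 2.58-fold in mRNA. By the ratio of the rule, with the addition, 123 of the 134 members were also at or below 0.33 in the knockout, against 17.6% of all genes. The members were chosen by their wild-type ratio, so the wild-type share follows largely from the rule. The limits on both differences hold the knockout ratio near the wild-type one, so the knockout shares follow in part from the rule too. The 251 genes with a low wild-type ratio that failed a stability limit were less bound in this way, and 179 of them (71.3%) were at or below 0.33 in the knockout. Reads in both assays were recovered for 242 of these genes. Their interval lay wholly below 0.33 in 163 (67.4%) in wild type and in 158 (65.3%) in the knockout. The shares of members were 71.3% and 81.4%.

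**Figure D3:**
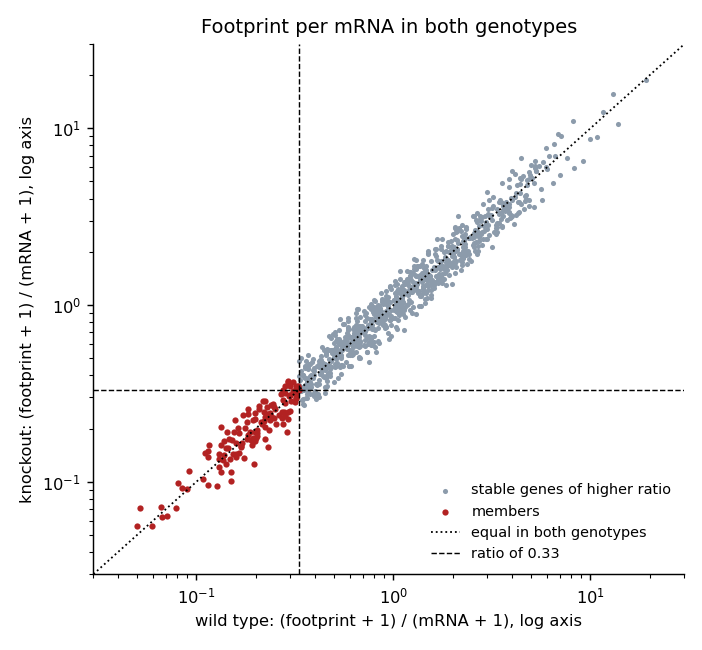
Footprint per mRNA, each value plus 1, in the knockout (vertical, log axis) against wild type (horizontal, log axis) for members (red) and comparison genes (grey), with dashed lines at 0.33 in each genotype. Of the 134 members, 123 lie at or below 0.33 in the knockout too, and the 11 others reach at most 0.372.

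Within the limits, the members' mRNA differences ran from -0.35 to 0.35 on the log2 scale with a median of -0.06 and an SD over genes of 0.17. Footprint differences ran from -0.35 to 0.33 with a median of -0.04 and an SD of 0.20. The difference lay below 0 in mRNA for 83 of 134 members (61.9%), against 49.7% of all genes and 46.8% of the comparison genes. In footprints it lay below 0 for 77 members (57.5%), against 54.9% of all genes and 49.9% of the comparison genes. Wild-type mRNA enters both this difference and the ratio that chose the members, so the mRNA shares are not independent of the choice.

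The depth limits how far the members can be called stable in footprints. The counting interval of the knockout over wild-type footprint fold excluded equality in 4 of 134 members (2.99%), against 51.6% of all genes and 31.1% of the comparison genes. The limit on the difference, which members and comparison genes share, holds both shares down, and the members had fewer reads. All 4 were lower in the knockout: FBgn0053129, FBgn0037021, FBgn0039644 and FBgn0005777, of which the last 3 were named after their values were seen. The interval lay wholly inside the limits of the rule in only 6 members (4.48%), against 16.8% of all genes and 35.0% of the comparison genes. For the other 128 members the recovered reads do not exclude a footprint difference past 1.27-fold. Lost factors widen the intervals and unmarked copies of 1 molecule narrow them, so 128 is not a limit in either direction. FBgn0010078 was one of the 6, with a footprint fold of 1.02 (0.901 to 1.15), while FBgn0260484 had 0.994 with an interval from 0.266 to 4.51.

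**Figure D4:**
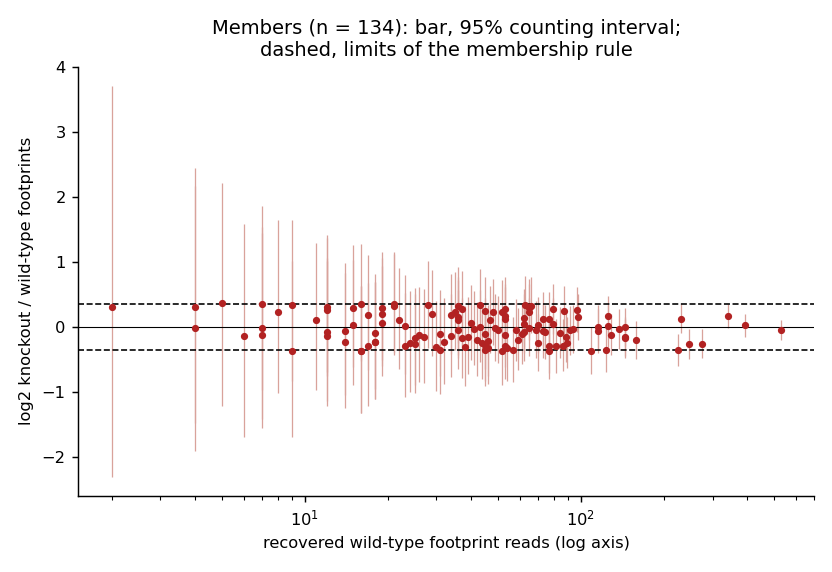
Log2 of knockout over wild-type footprints (vertical, without the added 1) with 95% counting intervals against recovered wild-type footprint reads (horizontal, log axis), 1 point for each of the 134 members, with dashed lines at -0.35 and 0.35. The points lie near or inside the dashed lines by choice, and the bars narrow from left to right, staying wholly inside the lines in 6 members.

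In mRNA, which had more reads, the interval lay inside the limits in 107 of 129 members (82.9%), against 56.3% of all genes and 77.7% of the comparison genes. It excluded equality in 83 of the 129 (64.3%), of which 53 were lower and 30 higher in the knockout, against 71.1% of all genes and 59.9% of the comparison genes. The mRNA of many members thus differed between these libraries by more than counting error, and the interval reached past a limit in 22 of the 129. With 1 library per genotype, the spread between animals is unknown and these shares do not show an effect of NSUN2.

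Taken as footprint per mRNA, the knockout ratio was the higher one in 72 members and the lower one in 62, and 3 members differed past 1.5-fold. These counts were made in members only, so they show nothing particular to the members. The SD over genes of the log2 ratio difference was 0.246 in members and 0.248 in comparison genes, which share the stability limits. It was 0.603 over all genes. The median log2 ratio difference was 0.035 in members (quartiles -0.137 to 0.202) and -0.016 in comparison genes (-0.194 to 0.170). Over all genes it was -0.056 (-0.414 to 0.283). The wild-type ratio chose the members and enters this difference, so these values are not independent of the choice. FBgn0013773 had the largest rise among members. Its mRNA was 67.7 (wild type) and 53.8 (knockout) and its footprints were 8.13 and 10.2, a log2 ratio difference of 0.62. FBgn0040212 followed at 0.52, from footprints of 2.93 and 3.68. Without the added 1, the wild-type and knockout ratio intervals overlap in both genes. They were 0.084 to 0.167 and 0.152 to 0.234 in FBgn0013773, and 0.075 to 0.187 and 0.137 to 0.242 in FBgn0040212. At the other end, FBgn0030551 had mRNA of 187 and 227 and footprints of 35.7 and 27.8, a log2 ratio difference of -0.63, and FBgn0053139 had -0.59. Their wild-type and knockout intervals do not overlap. These were 0.156 to 0.231 and 0.105 to 0.142 in FBgn0030551, and 0.208 to 0.334 and 0.142 to 0.204 in FBgn0053139. The members named at both ends lie toward opposite limits in the 2 assays, which caps the difference that any member can show.

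Coding length was not used by the rule, although it divides the footprint values. Members were shorter than comparison genes, with a median of 511 codons (quartiles 328 to 696) against 647 (394 to 1028), and 593 over all genes. Coding lengths over 1000 codons were held by 11 of 134 members (8.21%), 222 of 849 comparison genes (26.1%) and 24.0% of all genes. At the short end, 15 members (11.2%) and 71 comparison genes (8.36%) were under 200 codons. These counts are upper limits, since a lost factor makes a length too short. FBgn0033884, the shortest member at 34 codons and named after its values were seen, rested on 2 wild-type and 5 knockout footprint reads, and its exonic length came out at 2021 nt. The groups differed more in the share over 1000 codons than in the share under 200. The 250 low-ratio genes outside the stability limits with a recovered length were shorter again, with a median of 436 codons, and 16 of them were over 1000 codons.

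Among all stable genes the median coding length rose with the ratio, from 478 codons at ratios up to 0.15 (35 genes) and 524 from 0.15 to 0.33 (99 genes) to 699.5 above 4 (65 genes). Across the 983 stable genes with a length, the Spearman rho of ratio and coding length was 0.157, and within the members it was 0.127. These genes share libraries and the length is a divisor in the ratio, so the coefficients are descriptions. Coding length also differed with mRNA level, and the length difference was not the same at each mRNA level. Members with wild-type mRNA from 5 to 30 had a median of 548 codons (19 genes) against 808.5 in comparison genes. From 30 to 60, which held 55 members, the medians were 608 and 668, and from 60 to 120 they were 453.5 and 507. Above 120 the order turned, with 342 codons in 22 members and 307 in 69 comparison genes.

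Footprint reads moved with this result too, since a longer coding region collects more of them at the same value. Among genes with at least 50 wild-type footprint reads, the median was 601 codons in 61 members and 679 in 768 comparison genes, a smaller gap in the same direction. With members chosen on reads not divided by any length, the medians were 392 and 681. Such a choice itself favours coding regions that are short beside the exonic length. The part of depth in the length difference was not tested.

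**Figure D5:**
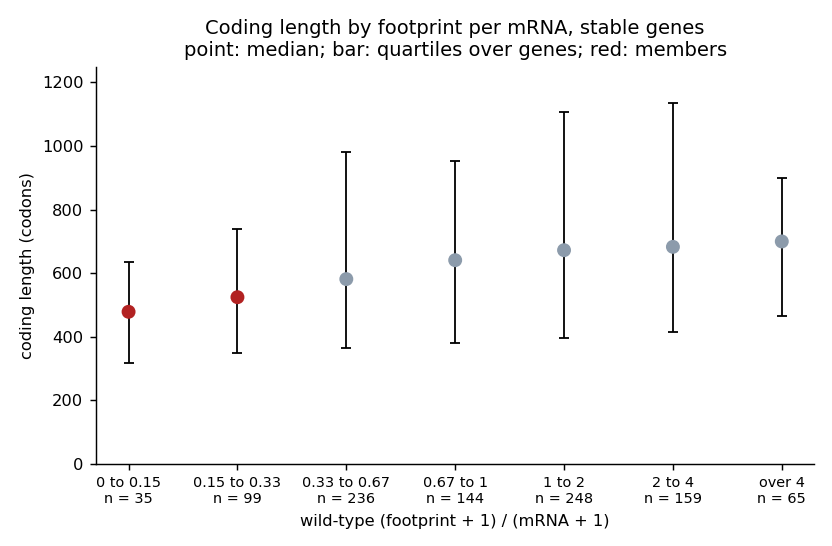
Coding length in codons (vertical) for the 986 stable genes in bins of the wild-type ratio (horizontal), with the median as a point and the quartiles over genes as a bar, and genes without a recovered length left out of the medians. Medians rise from 478 codons in the lowest bin of members (red) to 699.5 in the highest bin of comparison genes (grey), and the quartile ranges of all bins overlap.

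The exonic length, by which the mRNA values were divided, was shorter in members as well. Its median was 2162 nt in 129 members, 2927.5 nt in 830 comparison genes and 2715.5 nt over all genes, and 94 of the 129 members (72.9%) lay under the all-gene median. The part of the message outside the coding region took a median of 25.4% of the exonic length in members, 25.04% in comparison genes and 25.1% over all genes. In nt that part had a median of 537 in members and 655 in comparison genes. By the recovered lengths, members were thus shorter inside and outside the coding region. The part outside was taken as the exonic length less 3 nt per codon. A factor lost from the coding length makes it too long, and one lost from the exonic length makes it too short. Its values are therefore not limits in either direction. FBgn0261397, with 600 codons, had 4694 nt outside the coding region, the longest recovered for any member.

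The listed m5C level was bounded by the rule at 0.6. Its lowest value was 0.1 over the 2860 listed genes and 0.101 in members, so messages with lower levels are not among the genes compared here. Between these bounds the level was free to vary. Its median was 0.215 in members (quartiles 0.137 to 0.339) and 0.234 in comparison genes (0.146 to 0.358). Levels under 0.2 were listed for 62 members (46.3%) and 42.5% of comparison genes, and levels of at least 0.4 for 21 members (15.7%) and 19.7%. The distributions overlapped almost entirely, and the rho of ratio and m5C level was -0.068 within the members and 0.069 across the stable genes. Low ratios were thus spread over all listed m5C levels up to the limit.

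The most highly methylated members had ordinary ratios for the set. FBgn0261397 had an m5C level of 0.597, mRNA of 40.8 (wild type) and 31.8 (knockout), and footprints of 8.46 and 6.63. FBgn0039636, at 0.581, had mRNA of 31.0 and 35.8 and footprints of 6.28 and 7.91. FBgn0015270, at 0.579, had mRNA of 87.0 and 96.0 and footprints of 10.4 and 11.96. The first gene was lower in the knockout in both assays and the other 2 were higher in both, all within the limits. FBgn0004914 at 0.555, FBgn0010078 at 0.541 and FBgn0051151 at 0.532 completed the 6 highest. Outside the limit, 33 genes with m5C levels of 0.6 or more met every other term. Their median ratio was 0.224 and their median coding length 499 codons, close to the members' 0.199 and 511.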

How the data were processed

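Per the submitters' processing notes, cutadapt, TopHat2, HTSeq and the dm3 build were used. Their versions, the annotation, the handling of reads with several matches and the choice of listed genes are unstated there and in the labels. Deposited expression is a signal, scaled by the authors to depth and to a gene length. The deposited m5C level is a fraction, per the file headers the highest of each gene, identical in all 4 tables; its coverage is unknown. Footprints were cut with micrococcal nuclease, per the labels' protocols, an enzyme known to prefer some bases, which can shift footprint values between genes.

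Within an assay, the ratio of 2 libraries' values equals a ratio of whole reads times 1 constant. That constant and a length unit were searched for at a relative tolerance of 1e-09, and reads were recovered for 99.6% (footprints) and 97.1% (mRNA) of genes. Length units of codons and nt are assumed: the recovered exonic length fell below 3 nt per codon in 14.5% of genes, where reads and length were raised by the smallest whole factor. The recovery was tested on simulated data. Fold and ratio values have exact Clopper-Pearson intervals from these reads, computed with scipy 1.17.1, numpy 2.4.6 and pandas 2.3.3 on Python 3.11.15.

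No test between genotypes was made, with 1 library per group. Genes were named by rule: the 10 lowest ratios, 10 highest mRNA values, 6 highest m5C levels, 4 either side of the ratio limit and 2 at each end of the ratio difference. Members, lists and rule were chosen with earlier results of these data known. Protein lengths and promoter letters in the design needed sequences that were not used here, so coding length from the values took their place.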

Additional observations from a re-analysis of the deposited data

How the results depend on the processing

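No paired analysis was possible because a single library was made for every group. The added settings (at least 50 footprint reads, reads without lengths, a low ratio in both genotypes) were chosen after seeing the data. Of 13 settings, 9 kept the number of members within 1.5 times 134. It was 264 with a ratio limit of 0.5, 58 and 217 with difference limits of 0.2 and 0.5, and 61 with at least 50 wild-type footprint reads. Without a pseudocount there were 133 members, 120 of them shared. Reads without lengths gave 177 members, 111 of them shared. The median m5C level was 0.252 with no m5C limit. The median wild-type mRNA was 68.4 and the median ratio 0.245 with at least 50 reads. Ratio limits of 0.25 and 0.5 gave median ratios of 0.172 and 0.328 by construction. Median coding length was 601 codons with at least 50 reads and 392 with reads without lengths. In all 13 settings with both medians (the reported one included) it was shorter in members than in comparison genes. The settings share many genes, and reads without lengths favour short coding regions by construction. The 13 settings are therefore not separate checks. The gap was smaller with an mRNA minimum of 20, at 511 codons in members and 588 in comparison genes, against 511 and 647 in the reported setting. Low footprint reads limit every ratio here.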
